A study of Mus musculus with 17 samples.

Results

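Interferon-stimulated genes are the genes that a cell switches on when type I or type II interferon binds its receptors. The set described here was a list of 43 such genes, and its members were found through the gene symbols that GEO's annotation of the platform gives to the probe sets. Of the 43, 37 had a probe set under their symbol, among 15780 named genes on the array, and no filter on level removed any of them. The other 6, Ifit3, Isg15, Oas1a, Oas1g, Irgm2 and Ifi44, were not analysed here.

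The RNA came from NZB/W mouse kidneys, from which F4/80hi cells (macrophages with a high surface level of F4/80) had been sorted by flow cytometry. These hybrid mice develop a spontaneous lupus nephritis, and every group carried that background. Total RNA was hybridised to Affymetrix arrays, 1 array per sample, and values are log2 expression levels after RMA, a standard normalization between arrays. Medians of the deposited values still differed between arrays, from 7.49 to 7.68. The prenephritic group, titled young, held 6 arrays from mice aged 8 to 16 weeks. The nephritic group, titled sick, held 7 arrays from mice 2 to 6 weeks after proteinuria began and before terminal renal failure. The remission group held 4 arrays from mice 3 to 4 weeks after complete remission, which had been treated with 1 dose of cyclophosphamide, 6 doses of CTLA4Ig and anti-CD154. CTLA4Ig and anti-CD154 block T cell costimulation, and cyclophosphamide is a cytotoxic drug. Every remission sample had been treated, so remission and treatment cannot be told apart, nor can age and disease. The labels do not say that each array came from its own animal, so a p-value here reflects the spread among these arrays alone, which may be technical.

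As background, type I interferons signal through a receptor made of Ifnar1 and Ifnar2 to the kinases Jak1 and Tyk2. These activate a transcription factor complex that includes STAT2 and IRF9 and binds interferon-stimulated response elements in promoters. Interferon gamma acts mainly at gamma-activated sequences. Products of the induced genes sense foreign nucleic acid, block translation and virus entry, and feed back on the receptor. A raised interferon signature in blood and tissue is a known feature of lupus.

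The sorted cells carried their defining markers. The mean over 10 macrophage markers, Adgre1 (the F4/80 gene), Csf1r and C1qa among them, ran from 12.17 to 12.49 in prenephritic, 12.36 to 12.63 in nephritic and 12.21 to 12.50 in remission arrays. Correlations between arrays over all named genes lay between 0.942 and 0.994. The tubule score, the mean centred log2 value of 42 measured kidney tubule genes of 45 listed, ran from −0.98 to 0.69 in prenephritic, −1.95 to 0.57 in nephritic and −0.02 to 1.33 in remission arrays. The 3′ minus 5′ control signals for Gapdh, which track RNA integrity, spanned 0.92 to 1.34, 0.94 to 1.15 and 0.89 to 1.17 in the same order of groups. A bulk measurement cannot tell fewer cells of one kind from less RNA per cell.

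Interferon-stimulated genes were highest in nephritic and lowest in remission macrophages for most members. This order of group means held for 28 of the 37 members, against 24.5% of all named genes. Between nephritic and prenephritic arrays, 5 of 37 members (13.5%) rose and 0 fell, against 6.74% of all genes higher and 5.32% lower (limma, Benjamini-Hochberg adjusted p under 0.05 over 15780 genes). Means were higher for 31 members and lower for 6, against 45.7% and 54.3% of all genes, with a median log2 difference of 0.27 against −0.02. Every nephritic array lay above every prenephritic one for 2 members (Ifit1 and Oasl1) and below for 0, against 3.07% and 1.61% of all genes. Between remission and nephritic arrays, 16 of 37 members (43.2%) were lower and 0 higher, against 10.04% and 3.27% of all genes, with a median of −0.50 against −0.03. Means were lower for 36 members and higher for 1 (Gbp3, at 0.00), against 55.8% and 44.2% of all genes. Between remission and prenephritic arrays, 0 of 37 passed the same limma test, and 13 had an unadjusted p under 0.05, against 2946 of all 15780 genes. Of all genes, 0.00634% passed in that comparison, lower in remission. The 3 comparisons share arrays, so they are not separate evidence of one another. The members were listed with earlier results of these data known, so the contrasts with all genes are descriptive.

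The count in remission changed with single arrays and with tubule transcripts in the model. Without remission replicate 2, 5 members were lower than in nephritic arrays (Oas3, Ifih1, Dhx58, Zbp1 and Ifi35), and without remission replicate 1, 9 were. When the tubule score entered the fit as a covariate, 4 were (Ifit1, Ifih1, Zbp1 and Irgm1). The count of members that rose in nephritis was 3 without prenephritic replicate 5 and 10 without nephritic replicate 2.

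**Figure D1:**
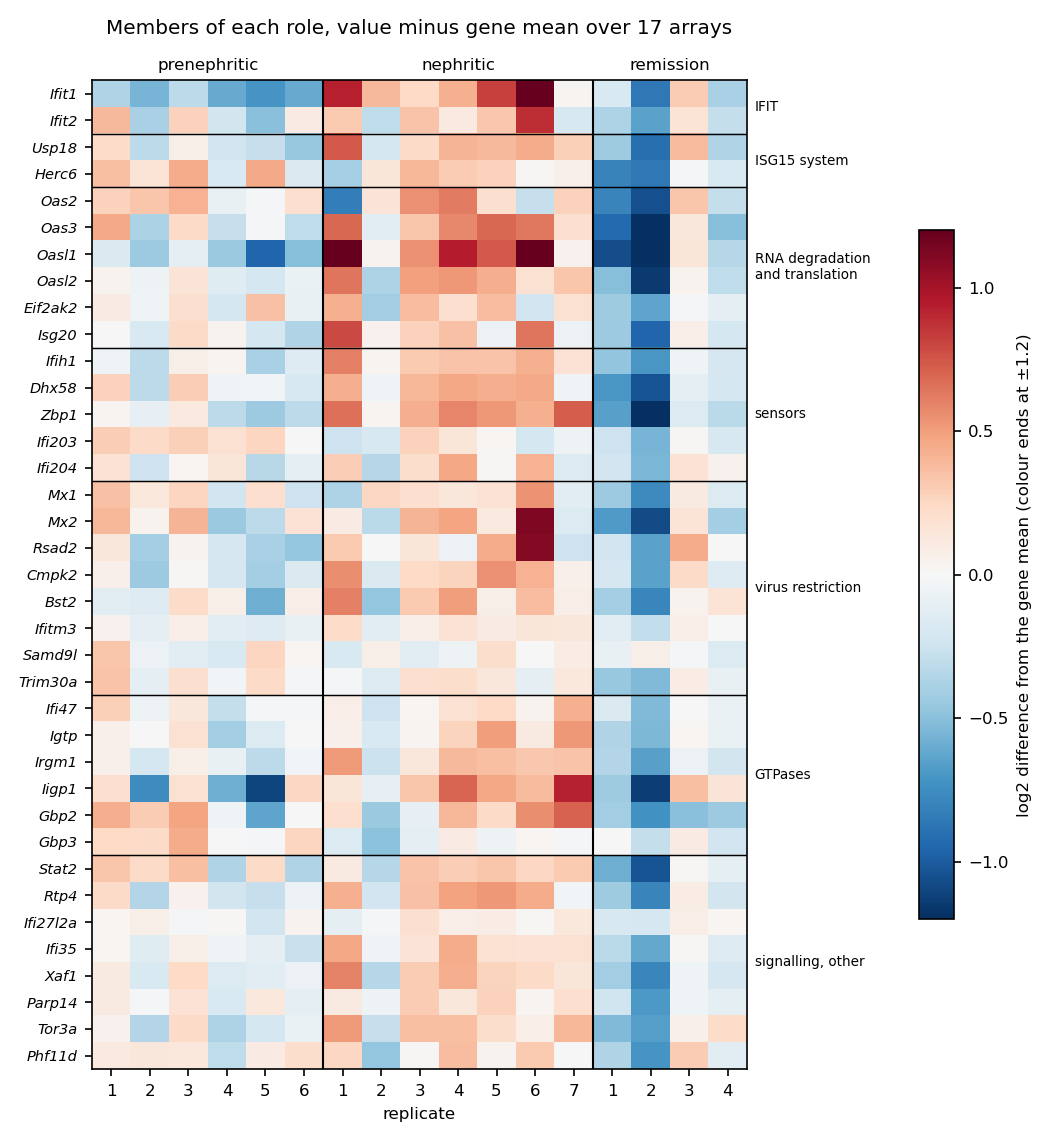
Each row is 1 of the 37 measured members, grouped by role, and each column 1 of the 17 arrays; colour gives the log2 value minus that gene's mean over all arrays. Remission replicate 2 is blue in nearly every row and holds the lowest remission value of 36 members, while nephritic arrays other than replicate 2 are mostly red.

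Several arrays held most members on the same side of their group mean. In prenephritic replicates 1 and 3, 36 of 37 members lay above their own group mean, against 49.4% and 63.3% of all genes in those arrays. In prenephritic replicates 4 and 5, 30 and 27 members lay below it, against 47.4% and 51.1% of all genes. Among nephritic arrays, replicate 2 stood lowest, with 33 members below the group mean (48.1% of all genes) and the lowest value of the group for 27. Nephritic replicates 4 and 5 had 31 and 28 members above it (56.5% and 35.2% of all genes), and replicates 1, 3, 6 and 7 were divided, with 22, 18, 22 and 17 above. Among remission arrays, replicate 2 held the lowest value for 36 members and replicate 3 the highest for 33. In remission replicates 1 and 2, 32 and 36 members lay below the group mean (52.5% and 61.0% of all genes), and in replicates 3 and 4, 37 and 32 lay above it (51.9% and 61.5%).

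The median of the members, centred on all arrays, put numbers on this. It was 0.14, −0.12, 0.18, −0.18, −0.21 and −0.08 in prenephritic replicates 1 to 6. In nephritic replicates 1 to 7 it was 0.31, −0.18, 0.28, 0.36, 0.27, 0.32 and 0.13, and in remission replicates 1 to 4 it was −0.42, −0.71, 0.08 and −0.18. Remission replicate 3 thus lay above 4 of the 6 prenephritic arrays and nephritic replicate 2 level with prenephritic replicate 4. The tubule score of the 4 remission arrays was 1.00, 1.33, 0.64 and −0.02, highest in the array with the lowest member median. The spread of the members was widest in remission, with a median SD of 0.37 (n = 4) against 0.28 in nephritic (n = 7) and 0.21 in prenephritic arrays (n = 6). Over all genes these medians were 0.16, 0.17 and 0.18. The SD was largest in remission for 31 of 37 members, against 27.98% of all genes.

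**Figure D2:**
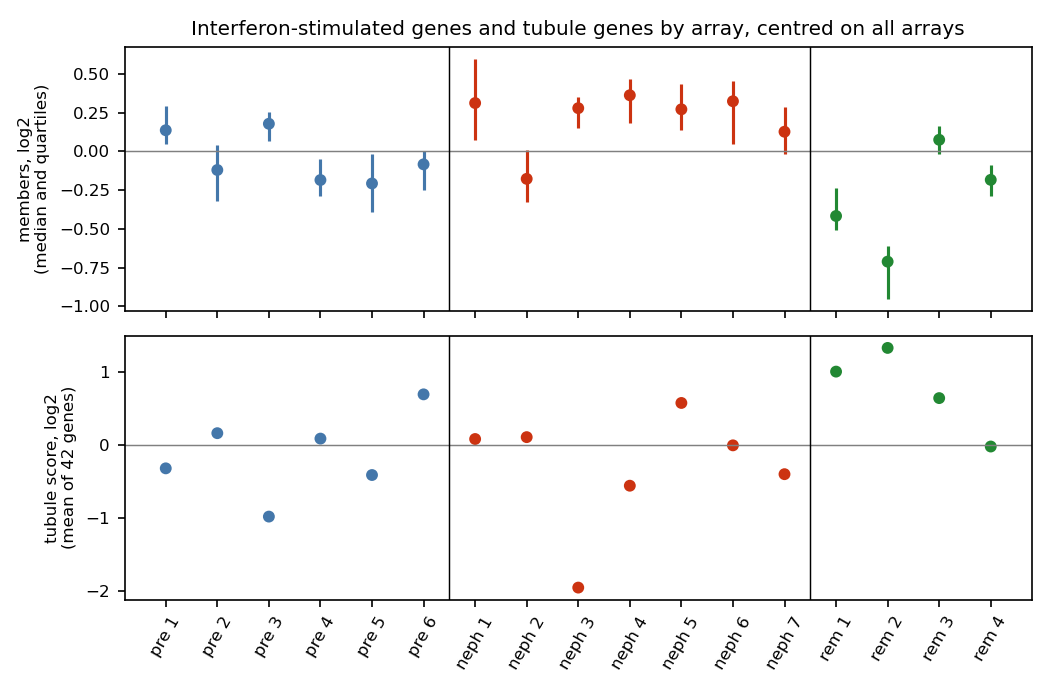
The upper panel shows, for each array, the median of the 37 members with bars from the lower to the upper quartile, and the lower panel the tubule score (mean of 42 genes), both as log2 values centred on all 17 arrays. The members' median falls to −0.71 in remission replicate 2, where the tubule score is 1.33, and stands at 0.36 in nephritic replicate 4.

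Promoter sequences were not used in choosing the list. RefSeq promoter windows (mouse build GRCm38.p6, 250 bases before to 50 after a gene's start) were matched by symbol for 25 of the 37 members. The core of the interferon-stimulated response element was searched as GAAA, any 2 bases and GAAA (TTTC, any 2 bases and TTTC on the other strand), with overlapping matches counted. It was present for 14 of the 25 genes, against 3.99% of the 27025 genes with a window. The gamma-activated sequence TTCNNNGAA, which reads the same on both strands, was present for 7 of 25, against 9.55%. A match to either motif is a description of the letters and not a bound site. Of the 14 members with the response element core, 5 passed the test in at least 1 comparison, as did 7 of the 11 with a window that lacks it and 5 of the 12 with no window. Of all genes, 18.7% passed in at least 1 comparison.

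The 130 bases before the start are printed for 6 members, with matches to the core in capitals, to set members that differed between groups (Ifit1, Oas3, Oasl1, Irgm1 and Gbp2) beside 1 that did not pass (Gbp3). Matches in Irgm1 and Gbp3 overlap, as 3 such blocks in a row.
Ifit1, chr19:34640759-34640888, plus strand: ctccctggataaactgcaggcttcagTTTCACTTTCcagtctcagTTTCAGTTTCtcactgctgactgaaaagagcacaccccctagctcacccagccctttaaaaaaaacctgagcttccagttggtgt
Oas3, chr5:120777660-120777789, minus strand: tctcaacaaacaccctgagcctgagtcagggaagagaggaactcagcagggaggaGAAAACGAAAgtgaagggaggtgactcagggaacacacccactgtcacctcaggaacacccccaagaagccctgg
Oasl1, chr5:114923110-114923239, plus strand: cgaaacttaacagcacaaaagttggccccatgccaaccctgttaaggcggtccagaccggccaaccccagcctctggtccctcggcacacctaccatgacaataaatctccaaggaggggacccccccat
Irgm1, chr11:48871421-48871550, minus strand: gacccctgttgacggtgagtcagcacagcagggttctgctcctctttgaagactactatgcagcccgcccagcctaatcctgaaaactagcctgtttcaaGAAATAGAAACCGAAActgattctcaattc
Gbp2, chr3:142620533-142620662, plus strand: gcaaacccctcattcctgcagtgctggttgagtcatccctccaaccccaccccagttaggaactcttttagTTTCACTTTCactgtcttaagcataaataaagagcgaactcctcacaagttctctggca
Gbp3, chr3:142559914-142560043, plus strand: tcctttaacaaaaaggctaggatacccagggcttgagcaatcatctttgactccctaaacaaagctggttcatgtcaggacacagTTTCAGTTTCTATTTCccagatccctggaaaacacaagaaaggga

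The first match began 104 bases before the start in Ifit1, with a second at 85, and 75, 30, 59 and 45 bases before it in Oas3, Irgm1, Gbp2 and Gbp3. In Oasl1 these letters are not in the window.

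The IFIT proteins bind viral RNA that lacks the cap methylation of host messages. Ifit1 ranged from 9.27 to 9.67 with a median of 9.40 in prenephritic arrays and from 10.01 to 11.42 with a median of 10.40 in nephritic arrays. In remission arrays it was 9.79, 9.12, 10.29 and 9.59. Every nephritic array lay above every prenephritic one, and remission arrays spread over both ranges. Ifit1 was 2.20-fold higher in nephritis (log2 difference 1.14 ± 0.21, SE, adjusted p = 0.0017) and lower in remission than in nephritis (−0.89 ± 0.23, adjusted p = 0.019). The second call was lost without remission replicate 2 (−0.70, adjusted p = 0.095) and with only those groups in the fit (adjusted p = 0.053). Ifit2, a partner of the same family, had nephritic minus prenephritic and remission minus nephritic differences of 0.27 ± 0.19 and −0.50 ± 0.22 (adjusted p = 0.42 and 0.14). Both were highest in nephritic replicate 6, at 11.42 and 12.26.

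Usp18 and Herc6 act on ISG15, a ubiquitin-like protein that interferon attaches to other proteins. Usp18 removes ISG15 and also damps signalling at the type I receptor, and Herc6 is the mouse ligase that attaches it. Usp18 stood at 10.78 ± 0.26 (SD, n = 6), 11.27 ± 0.29 (SD, n = 7) and 10.62 ± 0.53 (SD, n = 4) in prenephritic, nephritic and remission arrays. It was lower in remission than in nephritis (−0.65 ± 0.20, adjusted p = 0.044), and its difference of 0.49 ± 0.18 in nephritis had an adjusted p of 0.093. The remission call for Usp18 was lost in 18 of 28 alternatives. Among them were repeated quantile normalization, the tubule covariate and the fits without remission replicate 1, 2 or 4. The nephritic minus prenephritic difference of Herc6 was −0.07 ± 0.17 (adjusted p = 0.86). Its remission values were 7.84, 7.79, 8.62 and 8.46, against 8.25 to 9.05 in nephritic and 8.46 to 9.10 in prenephritic arrays. Herc6 was lower in remission than in nephritis (−0.58 ± 0.19, adjusted p = 0.049), while the difference from prenephritic arrays of −0.65 ± 0.19 had an adjusted p of 0.17. The call against nephritis was lost in 17 of 28 alternatives. Among them were a 1.5-fold minimum, repeated quantile normalization, the tubule covariate and the fits without remission replicate 1 or 2.

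The oligoadenylate synthetases Oas2 and Oas3 make the short adenylate chains that switch on RNase L, and the related Oasl1 restrains translation of Irf7. Oasl1 had the largest differences of any member in both comparisons with nephritis. It ranged from 8.06 to 8.89 (median 8.57) in prenephritic and from 9.05 to 11.14 (median 9.74) in nephritic arrays, and was 7.95, 7.27, 9.16 and 8.67 in remission. The prenephritic and nephritic ranges did not overlap, and nephritic replicate 6 was the high value. Oasl1 was 2.37-fold higher in nephritis (1.25 ± 0.33, adjusted p = 0.019) and 2.94-fold lower in remission than in nephritis (−1.56 ± 0.37, adjusted p = 0.011). The first call was lost without prenephritic replicate 5 (1.14, adjusted p = 0.050007), and the second without remission replicate 2 (−1.23, adjusted p = 0.059) or with the tubule covariate (−1.45, adjusted p = 0.054).

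Oas3 ranged from 9.91 to 10.74 in prenephritic arrays (median 10.14) and from 10.15 to 10.97 in nephritic arrays (median 10.86). Its remission values were 9.35, 8.90, 10.42 and 9.77. The nephritic and remission ranges met only through nephritic replicate 2 and remission replicate 3. Oas3 was 2.14-fold lower in remission (−1.10 ± 0.24, adjusted p = 0.0071; with the tubule covariate −0.93, adjusted p = 0.053), and its nephritic difference of 0.48 ± 0.22 had an adjusted p of 0.17. Oasl2 was lower in remission than in nephritis by the same test (−0.80 ± 0.19, adjusted p = 0.012), with values of 10.27, 9.63, 10.83 and 10.48 against 10.41 to 11.42. That call was lost without remission replicate 2 (−0.58, adjusted p = 0.060) and with the tubule covariate (−0.61, adjusted p = 0.10).

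Isg20, an RNA exonuclease gene, was also lower in remission than in nephritis (−0.66 ± 0.19, adjusted p = 0.031). That call was lost in 8 of 28 alternatives, including the fits without remission replicate 1 or 2. Eif2ak2, which encodes the translation-blocking kinase PKR, stood at −0.43 ± 0.17 in that comparison and 0.08 ± 0.15 in nephritis (adjusted p = 0.098 and 0.80). Oas2 had differences of −0.55 ± 0.26 and −0.08 ± 0.23 (adjusted p = 0.18 and 0.88). Nephritic replicate 1 held the lowest Oas2 value of its group, 9.97, and an Oas3 value of 10.97, level to 2 decimals with the highest of its group in replicate 5. Members of the Oas, Ifit, Gbp and Ifi200 families resemble each other in sequence, so a probe set can take signal from a relative.

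**Figure D3:**
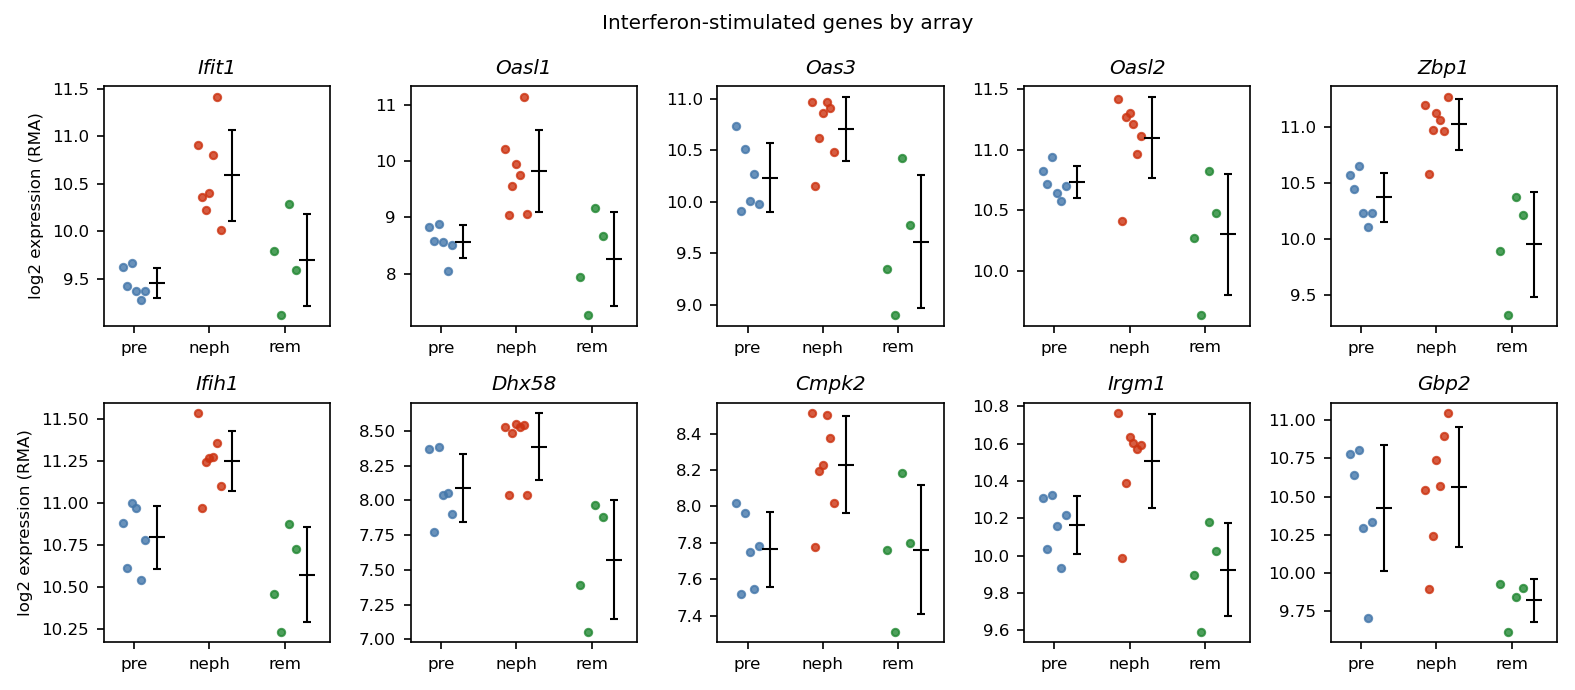
Each dot is 1 array and each panel 1 gene on a log2 RMA scale (axes do not start at 0), with black bars for the mean ± SD of 6 prenephritic (pre), 7 nephritic (neph) and 4 remission (rem) arrays. Ifit1 and Oasl1 have prenephritic and nephritic ranges that do not overlap, and for Zbp1, Ifih1 and Dhx58 every remission value lies below every nephritic value.

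Cytosolic nucleic acid sensors included the members whose nephritic and remission values did not overlap. For 3 of 5 sensor genes, Zbp1, Ifih1 and Dhx58, every remission array lay below every nephritic array. They were the only 3 of the 37 members to do so (8.11%), against 6.95% of all genes, so the share itself is near the background, and 0 lay wholly above, against 1.70% of all genes. Zbp1 recognises Z-form nucleic acid and can start necroptosis. It ranged from 10.10 to 10.66 (median 10.34) in prenephritic and from 10.58 to 11.27 (median 11.07) in nephritic arrays, and was 9.89, 9.32, 10.38 and 10.21 in remission. Zbp1 rose 1.57-fold in nephritis (0.65 ± 0.15, adjusted p = 0.010) and was 2.11-fold lower in remission than in nephritis (−1.08 ± 0.17, adjusted p = 0.00083). Across 28 alternatives neither call was lost, with differences from 0.60 to 0.73 and from −1.22 to −0.87.

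Ifih1 encodes MDA5, a sensor of long double-stranded RNA. It ranged from 10.54 to 11.00 in prenephritic arrays (median 10.83) and from 10.97 to 11.53 in nephritic arrays (median 11.27), with remission values of 10.46, 10.23, 10.88 and 10.73. Ifih1 rose in nephritis (0.45 ± 0.11, adjusted p = 0.014) and was lower in remission than in nephritis (−0.68 ± 0.13, adjusted p = 0.0025). The latter call held in all 28 alternatives. Dhx58 encodes LGP2, which regulates MDA5 and RIG-I. Its nephritic values of 8.04 to 8.55 lay above remission values of 7.39, 7.06, 7.97 and 7.88 (−0.81 ± 0.17, adjusted p = 0.0059; with the tubule covariate −0.61, adjusted p = 0.056). Its nephritic minus prenephritic difference was 0.30 ± 0.15 (adjusted p = 0.24).

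Neither Ifi200 family gene passed in any comparison. Ifi203, a nuclear DNA-binding family member, had a mean of 10.03 ± 0.11 (SD, n = 6) before nephritis, 9.78 ± 0.20 (SD, n = 7) during it and 9.57 ± 0.24 (SD, n = 4) in remission. Its remission values of 9.57, 9.26, 9.83 and 9.63 reached into the prenephritic range of 9.82 to 10.12 through replicate 3 alone. The difference of −0.46 ± 0.12 between them had the smallest unadjusted p of any member in that comparison (0.0011), with an adjusted p of 0.14. It passed with array weights (adjusted p = 0.0497) and with the replicate number as a block (adjusted p = 0.039). Ifi204 had adjusted p of 0.30 or more in each comparison, but with that block it was lower in remission than in nephritis.

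Restriction factors, which block virus entry, budding or replication, gave calls close to the share over all genes. Of 8 measured, 1 rose in nephritis and 0 were lower in remission (limma), against 6.74% and 10.04% of all genes. In the latter comparison 6 had an unadjusted limma p under 0.05, against 4637 of all 15780 genes. Cmpk2, a mitochondrial nucleotide kinase gene next to Rsad2, ranged from 7.52 to 8.02 in prenephritic arrays (median 7.77) and from 7.78 to 8.51 in nephritic arrays (median 8.23), and was 7.76, 7.31, 8.18 and 7.80 in remission. It rose in nephritis (0.47 ± 0.14, adjusted p = 0.042), a call lost in 15 of 28 alternatives. Rsad2, which encodes viperin, had a difference of 0.46 ± 0.20 (adjusted p = 0.17), with 11.96 in nephritic replicate 6 and 10.61 to 11.30 in the other 6 nephritic arrays. Mx2 was likewise highest in nephritic replicate 6, at 9.45 against 8.00 to 8.80 in the others.

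The remaining restriction factors did not pass in either comparison, although Bst2 and Mx2 were lower in remission with the replicate block. Mx1, which encodes a nuclear anti-influenza GTPase, differed by 0.04 ± 0.16 in nephritis and −0.43 ± 0.18 in remission (adjusted p = 0.92 and 0.12). Ifitm3, which encodes a block to viral fusion, stood at 13.14 ± 0.10 (SD, n = 6), 13.30 ± 0.11 (SD, n = 7) and 13.11 ± 0.16 (SD, n = 4). Bst2, the tetherin gene, differed by 0.30 ± 0.18 and −0.46 ± 0.21 in the nephritic and remission comparisons (adjusted p = 0.34 and 0.15). Samd9l and Trim30a had nephritic differences of −0.04 ± 0.09 and −0.05 ± 0.11.

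The interferon-inducible GTPases attack the vacuoles of intracellular microbes, and many answer strongly to interferon gamma. Of 6 measured, 0 passed in nephritis and 2 were lower in remission than in nephritis, against 12.1% and 10.04% of all genes. In nephritis 3 had an unadjusted limma p under 0.05, against 3992 of all 15780 genes. Irgm1 and Iigp1 were higher and Gbp3 was lower. Irgm1, a regulator of the others, ranged from 9.94 to 10.32 in prenephritic and from 9.99 to 10.76 in nephritic arrays, and was 9.90, 9.59, 10.18 and 10.03 in remission (−0.58 ± 0.13, adjusted p = 0.0092; 0.051 without remission replicate 2). Gbp2 was at 9.92, 9.61, 9.84 and 9.90 in remission, a narrower range than 9.89 to 11.05 in nephritic and 9.70 to 10.81 in prenephritic arrays (−0.74 ± 0.21 against nephritic, adjusted p = 0.030). That call was lost in 8 of 28 alternatives, including the fits without remission replicate 1, 2 or 3. Against prenephritic arrays Gbp2 differed by −0.61 ± 0.22 (adjusted p = 0.22).

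Gbp3, another guanylate-binding protein gene, passed in no comparison. Its means were 11.46, 11.16 and 11.17 in prenephritic, nephritic and remission arrays, with differences of −0.29 ± 0.10 in nephritis (adjusted p = 0.073) and 0.00 ± 0.11 in remission against nephritis (adjusted p = 1.00). With quantile normalization repeated, Gbp3 passed as lower in nephritis. Iigp1, an effector of this family, had one of the widest spreads, from 8.32 to 9.67 in prenephritic and 9.32 to 10.34 in nephritic arrays, and its difference of 0.71 ± 0.27 had an adjusted p of 0.10. Igtp and Ifi47 differed by −0.43 ± 0.15 and −0.31 ± 0.13 in remission against nephritis (adjusted p = 0.059 and 0.12).

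Stat2, a subunit of the complex that binds the response element, and 7 less studied members closed the list. In nephritis all 8 means were higher than in prenephritic arrays, by 0.01 to 0.39, against 45.7% of all genes. Of these, 0 passed, against 12.1% of all genes in either direction. An unadjusted limma p under 0.05 was reached by 3 of them, against 3992 of all 15780 genes. In remission all 8 were lower than in nephritis, against 55.8% of all genes, and 10.04% of all genes passed as lower. Of the 8, 4 passed. These were Ifi35 (−0.49 ± 0.11, adjusted p = 0.0090), Xaf1, the gene of an antagonist of the apoptosis inhibitor XIAP (−0.59 ± 0.16, adjusted p = 0.019), the ADP-ribosyltransferase gene Parp14 (−0.42 ± 0.11, adjusted p = 0.020) and Rtp4 (−0.62 ± 0.17, adjusted p = 0.025). Ifi35 was at 10.28, 9.99, 10.62 and 10.45 in remission, 10.56 to 11.06 in nephritic and 10.34 to 10.67 in prenephritic arrays. Xaf1 was at 11.03, 10.67, 11.40 and 11.24, against 11.10 to 12.04 in nephritic arrays. The nephritic and remission ranges of both genes overlapped. With the tubule covariate none of the 4 passed (adjusted p = 0.074 for Ifi35 and 0.14 for Xaf1). Xaf1 did not pass without remission replicate 1 or 2 (adjusted p = 0.064 and 0.099), nor did Rtp4 and Parp14. Stat2 stood at −0.62 ± 0.20 (adjusted p = 0.053), and Tor3a, Phf11d and Ifi27l2a had adjusted p of 0.093, 0.28 and 0.31.

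**Figure D4:**
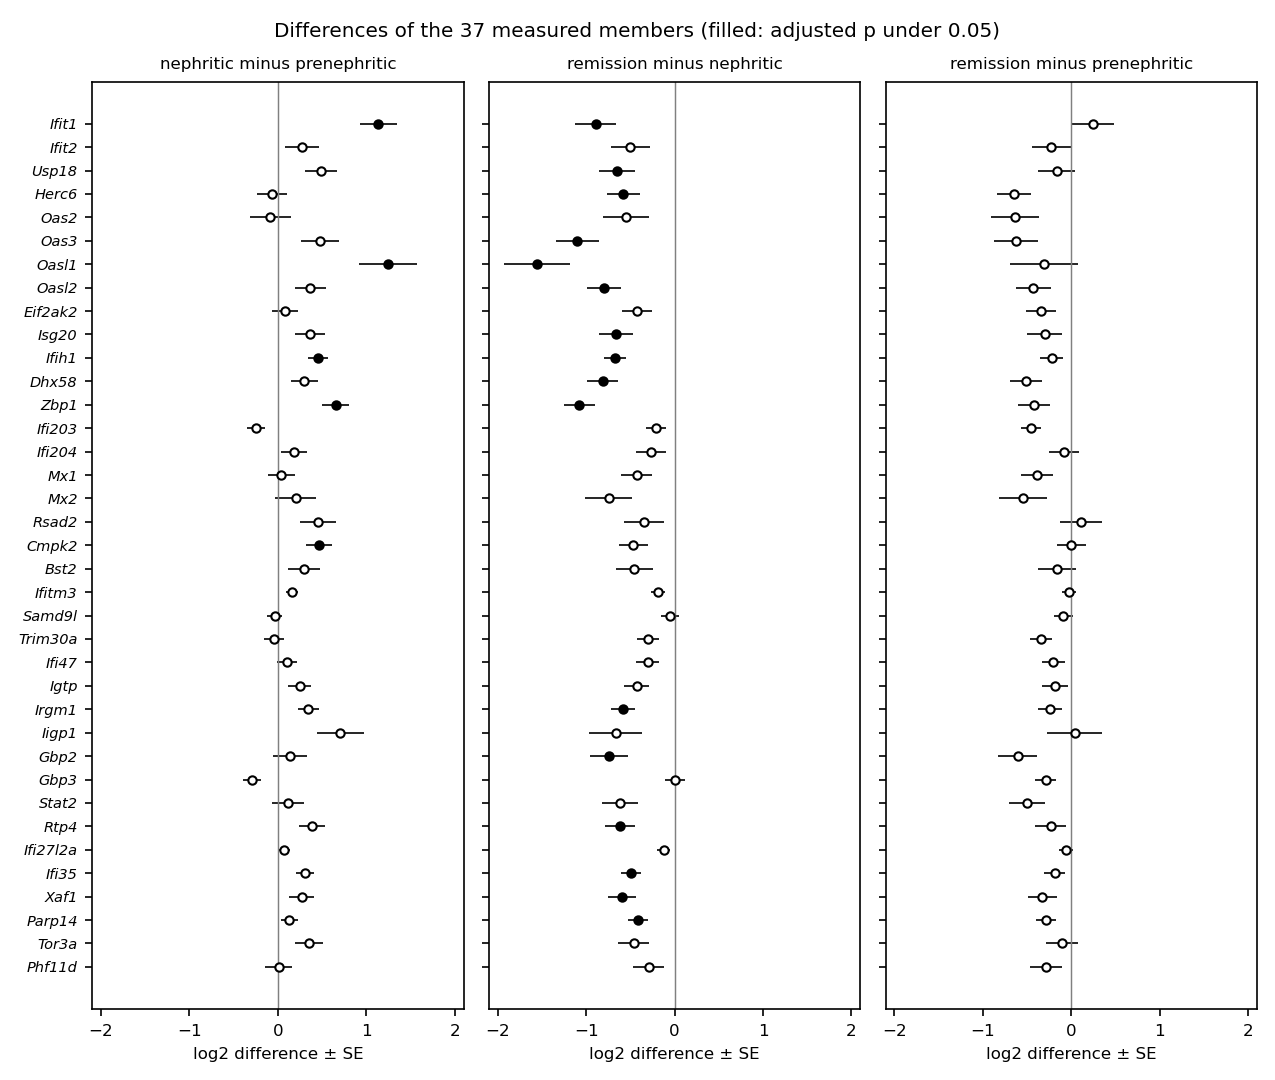
Points give the log2 difference ± SE of each of the 37 measured members in 3 comparisons from one limma fit to 17 arrays; filled points passed at an adjusted p under 0.05. In nephritic minus prenephritic 5 points are filled and all lie right of 0, in remission minus nephritic 16 are filled and all lie left of 0, and in remission minus prenephritic none is filled although 34 of 37 lie left of 0.

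Across all members, remission means were lower than prenephritic means for 34 of 37, against 63.4% of all genes, with a median of −0.29 against −0.05. The 3 with a higher mean, against 36.6% of all genes, were Ifit1 (0.24 ± 0.24), Rsad2 (0.11 ± 0.24) and Iigp1 (0.04 ± 0.31). The 4 members of smallest p were Ifi203, Herc6, Dhx58 (−0.51 ± 0.18, adjusted p = 0.20) and Gbp2. None of the 37 had remission and prenephritic ranges that did not overlap, against 1.93% of all genes with remission lower.

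The interferon genes themselves came first among the pathway genes outside the list. Of 6 ligand genes measured of 19 listed, 0 passed in any comparison, against 18.7% of all genes, and 0 had an unadjusted limma p under 0.05. Ifnb1 ranged from 4.35 to 6.77 in prenephritic and from 5.18 to 8.50 in nephritic arrays, and was 5.95, 5.41, 5.68 and 6.65 in remission. The high value was nephritic replicate 6, which held the group's highest value for 6 of the 37 members, against 12 in replicate 1. Ifit1, Ifit2, Oasl1, Rsad2 and Mx2 were among those 6. Whether Ifnb1 and the members varied together across arrays was not tested. Ifng ranged from 3.72 to 5.63 over the nephritic arrays. Values of both genes reached below 5.03, the lower quartile of mean levels on the array.

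The type I receptor genes passed in no comparison. Ifnar1 was at 11.13 ± 0.18 (SD, n = 6), 11.07 ± 0.15 (SD, n = 7) and 11.12 ± 0.17 (SD, n = 4), and Ifnar2 at 11.35 ± 0.18, 11.22 ± 0.26 and 11.19 ± 0.24, with adjusted p of 0.54 or more. Irf9, the DNA-binding subunit of the complex, differed by −0.17 ± 0.12 in nephritis and −0.18 ± 0.13 in remission against nephritis (adjusted p = 0.42 and 0.39). Of 17 receptor and signalling genes, 3 rose and 1 fell in nephritis and 4 were lower in remission than in nephritis, against 6.74%, 5.32% and 10.04% of all genes. Irf7, itself an interferon-induced factor that drives interferon genes, rose by 1.06 ± 0.24 (adjusted p = 0.0077) and was 1.41 ± 0.27 lower on the log2 scale in remission than in nephritis (adjusted p = 0.0029). Ikbke, the gene of an IRF-activating kinase, rose by 2.89 ± 0.29 and Ifnlr1, the lambda interferon receptor gene, by 1.19 ± 0.25 (adjusted p = 1.4e-05 and 0.0053). Both were lower in remission than in nephritis (limma, −3.10 ± 0.33 and −1.34 ± 0.29, adjusted p = 4.4e-05 and 0.0060). Mean Ifnlr1 was 5.13 in prenephritic and 4.98 in remission arrays, near the lower quartile of mean levels, 5.03. Irf8, a macrophage lineage factor, fell by 0.42 ± 0.13 in nephritis (adjusted p = 0.039). Jak2 was lower in remission than in nephritis (−0.41 ± 0.12, adjusted p = 0.029).

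Among 9 measured sensing genes, 2 rose in nephritis and the same 2 were lower in remission than in nephritis, against 6.74% and 10.04% of all genes. Tlr8, an endosomal RNA receptor gene, rose by 1.49 ± 0.23 (adjusted p = 0.00055), and the adaptor gene Myd88 by 0.57 ± 0.11 (adjusted p = 0.0024). Tlr7 and Tlr9 had adjusted p of 0.53 or more throughout. Of 12 genes that restrain interferon signalling or remove its nucleic acid triggers, 3 rose in nephritis and 5 were lower in remission, against the same shares. Socs3, a cytokine signalling inhibitor gene, rose by 1.31 ± 0.34 (adjusted p = 0.018), though prenephritic replicate 4 was at 11.71 within a nephritic range of 10.75 to 12.14. Samhd1, the gene of an enzyme that hydrolyses deoxynucleotides, rose by 0.29 ± 0.09 and was 0.65 ± 0.10 lower in remission on the log2 scale (adjusted p = 0.037 and 0.00054). Ptpn6, the SHP-1 phosphatase gene, rose by 0.29 ± 0.08 (adjusted p = 0.035). The RNA editor gene Adar and the DNA exonuclease gene Trex1 were lower in remission than in nephritis (−0.49 ± 0.15 and −0.58 ± 0.18, adjusted p = 0.037 and 0.043). Socs1 had adjusted p of 0.20 or more.

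**Figure D5:**
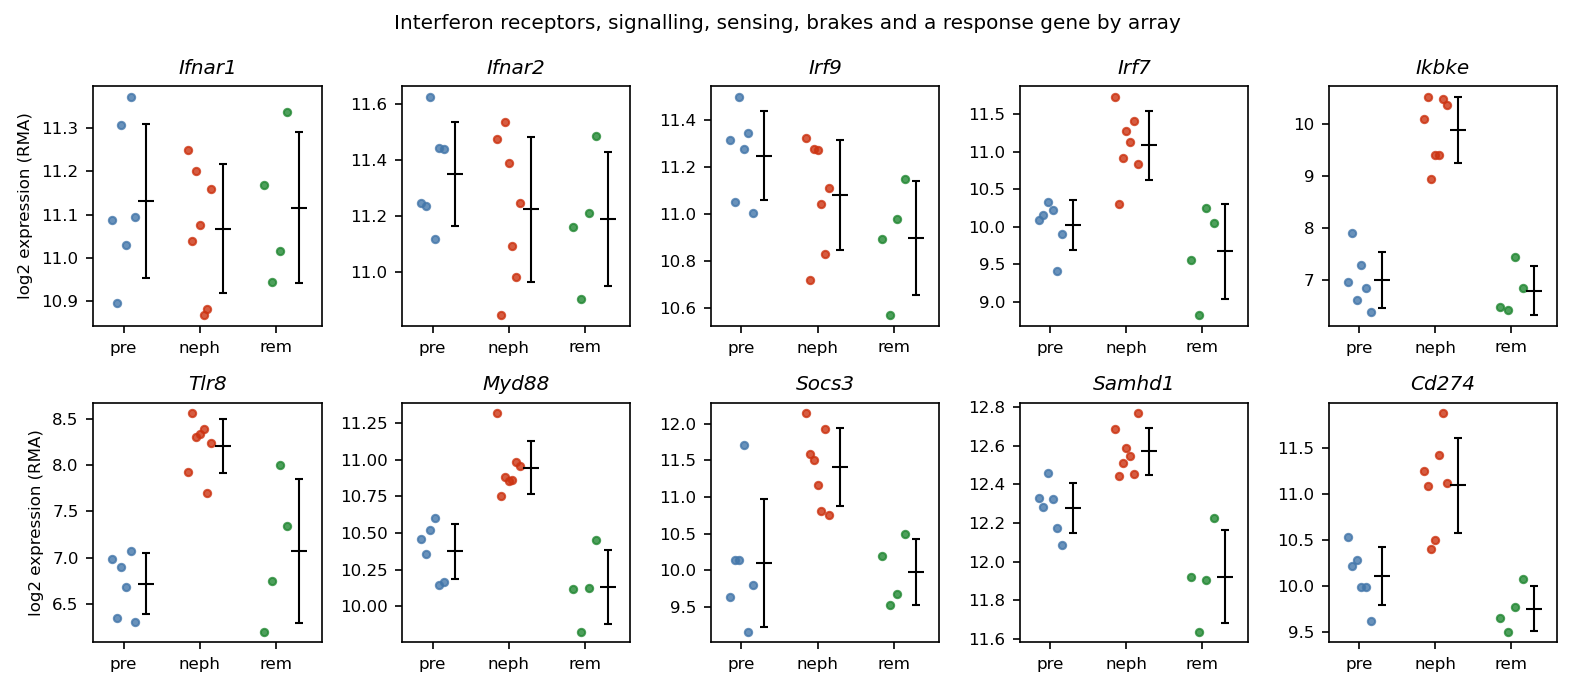
Each dot is 1 array and each panel 1 gene of the interferon pathway outside the list, on a log2 RMA scale (axes do not start at 0), with the mean ± SD of 6 prenephritic, 7 nephritic and 4 remission arrays. Ifnar1, Ifnar2 and Irf9 overlap across groups, while all 7 nephritic Ikbke, Tlr8 and Myd88 values lie above every prenephritic value.

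Genes answering mainly to interferon gamma gave 1 increase in nephritis among 11 measured. Cd274, which encodes PD-L1, rose by 0.99 ± 0.21 (adjusted p = 0.0048) and was 1.34 ± 0.24 lower in remission on the log2 scale (adjusted p = 0.0016). In remission 5 of 11 were lower than in nephritis, Cd274 with the peptide transporter gene Tap1 (−0.77 ± 0.17, adjusted p = 0.0070), the immunoproteasome genes Psmb9 and Psmb8 (−0.46 ± 0.14 and −0.40 ± 0.12, adjusted p = 0.033 and 0.034) and Gbp7 (−0.47 ± 0.15, adjusted p = 0.049). The chemokine genes Cxcl9 and Cxcl10 had adjusted p of 0.27 or more. In all, 9 of 55 measured pathway genes rose and 1 fell in nephritis, and 16 were lower in remission than in nephritis, which is 16.4%, 1.82% and 29.1% against 6.74%, 5.32% and 10.04% of all genes. In remission against prenephritic arrays 0 passed (15 of 55 at an unadjusted limma p under 0.05, against 2946 of all 15780 genes). Without remission replicate 2 the 16 became 8, without remission replicate 1 or nephritic replicate 1 it was 9, without remission replicate 3 or nephritic replicate 4 or 7 it was 10, and with the tubule covariate it was 8.

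Markers of other cell types moved in the same comparisons. Of 22 proximal and 20 distal tubule genes, 3 of each passed as higher in remission than in nephritis, against 3.27% of all genes. Means in remission were above those in nephritis for all 22 proximal and 19 of 20 distal genes, against 44.2% of all genes. The median log2 differences were 1.24 and 0.95, against −0.03 for all genes. An unadjusted limma p under 0.05 was reached there by 18 and 9 of them, against 4637 of all 15780 genes. In nephritis against prenephritic arrays 0 of either passed. Of 10 T cell genes, 4 rose in nephritis and 5 were lower in remission, against 6.74% and 10.04% of all genes, and their mean log2 level ran from 5.02 to 5.46 in prenephritic, 5.44 to 5.87 in nephritic and 4.98 to 5.19 in remission arrays. Of 12 B and plasma cell genes, 5 rose and 1 fell in nephritis, 3 were lower and 1 higher in remission, and their mean ran from 5.99 to 7.03, 7.05 to 7.87 and 6.32 to 6.91. Plasmacytoid dendritic cell markers outside the interferon lists ran from 7.60 to 8.03, 7.27 to 7.85 and 7.41 to 7.72, and natural killer cell markers from 4.75 to 5.76, 4.93 to 5.34 and 4.53 to 4.91. Counts over all 11 plasmacytoid markers include Irf7 and Bst2 of the interferon lists. Of the 11, 2 rose and 1 fell in nephritis, and 1 was higher and 1 lower in remission. Irf7 was 1 of the 2 that rose and the 1 that was lower. Of 9 natural killer markers, 1 fell in nephritis and 3 were lower in remission. Endothelial markers (10 measured) gave 1 rise in nephritis, and 1 was higher and 1 lower in remission. Neutrophil markers (10 measured) gave 1 rise in nephritis, and 1 was lower in remission. Over all genes, 6.74% rose and 5.32% fell in nephritis, and 10.04% were lower and 3.27% higher in remission than in nephritis. Of the 10 macrophage markers, 2 rose in nephritis and 2 were lower in remission. The tubule score itself differed between groups, with means of −0.13 in prenephritic, −0.31 in nephritic and 0.74 in remission arrays. A fit with this score as a covariate therefore cannot separate tubule transcripts from group. The part of these cells in the members' differences was not tested.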

How the data were processed

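The values are the authors' deposited log2 expression levels. RMA is the method that the submitters' processing notes name (background correction, quantile normalization and summary over probes); its version, the probe definition and filters were not given in the sources at hand. Of 16539 probe sets, 64 were controls, 15780 carried 1 gene symbol, 0 several and 695 none here. Values ran from 1.76 to 15.00 and array medians from 7.49 to 7.68. For arrays, their number limits the precision.

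Groups came from sample titles. Two-sided limma tests (limma 3.58.1, R 4.3.3) used 1 model with 3 group means on all 17 arrays (14 residual degrees of freedom) and Benjamini-Hochberg adjustment over 15780 genes, and were checked on simulated data. The members and lists were chosen with earlier results of these data known. The text names in full the members passing a comparison (at most 10 of smallest p, or the 4 of smallest p where fewer than 4 passed) and the highest and lowest of each role, with pathway genes passing a test and a fixed few. The tubule score averages 42 centred genes. Alternatives changed the filter on dim genes, scaling, fold minimum, weights, samples, covariates and each array in turn. Promoter sequences are from RefSeq (GRCm38.p6).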

Additional observations from a re-analysis of the deposited data

Results flagged for a closer look

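Of 111 sets of values (37 members in 3 groups), 4 had 1 array whose gap to the nearest other exceeded Dixon's 95% limit. All 4 were low values, and chance alone flags about 1 in 20 sets. In nephritic replicate 2, Ifitm3 was at 13.06 with the next array at 13.28, and Stat2 at 8.33 with the next at 8.77. In prenephritic replicate 5, Ifi27l2a was at 12.85 with the next at 13.06. In prenephritic replicate 4, Phf11d was at 10.74 with the next at 11.15.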

How the results depend on the processing

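Over 28 alternatives, the 5 calls of members in nephritis were lost in 19 of 140 checks. The 16 in remission against nephritis were lost in 73 of 448. Losses were most frequent for Usp18 (18 of 28), Herc6 (17) and Cmpk2 (15). The 1.5-fold minimum, counted among the 28, is a size cut-off and not another model. Ifih1 and Cmpk2 in nephritis and Herc6, Irgm1, Ifi35 and Parp14 in remission were lost there. The calls kept in all 28 were those of Ifit1 and Zbp1 in nephritis and Ifih1 and Zbp1 in remission. Of the 19 differences named by the rule, 0 reversed. The 5 members higher in nephritis became 3 with a 1.5-fold minimum and 2 with nephritic replicate 6 and prenephritic replicate 5 both left out, and ranged from 3 to 10 when single arrays were left out. The 0 lower became 1 with repeated quantile normalization (Gbp3) and 1 with the tubule score as a covariate (Ifi203). The 16 lower in remission than in nephritis became 4 with that covariate and ranged from 5 to 21 without single arrays, and the 0 lower than prenephritic became 1 with array weights and 1 with the replicate block. Changed pathway genes went from 10 to 6 with a 1.5-fold minimum in nephritis. In remission against nephritis they went from 16 to 9 with that minimum and 8 with the tubule covariate, and from 8 to 19 without single arrays. In remission against prenephritic arrays they went from 0 to 4 with array weights and 5 with the replicate block, and from 0 to 2 without single arrays. The labels do not say whether the replicate numbers pair the samples. Deviations of same-numbered arrays correlated from −0.26 to 0.80 (median 0.12) over 14 pairs, and 3 of 17 arrays correlated best with their own number. Arrays of unlike number correlated from −0.73 to 0.79 (median 0.005) over 80 pairs. These ranges overlap, so the correlations cannot settle whether the numbers mark pairs or batches. With the replicate block 7 members were higher in nephritis (Rtp4 and Ifi35 added) and 20 lower in remission than in nephritis (Ifit2, Ifi204, Mx2, Cmpk2 and Bst2 added, Gbp2 lost). The cause of these changes was not tested, and 4 remission arrays limit what that group can show.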

Other observations

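A further 22 genes named like the members (Ifi, Ifit, Ifitm, Oas, Gbp and Isg symbols outside the lists) were picked out after the data had been seen. In nephritis 0 of them passed the limma test, against 12.1% of all genes. An unadjusted limma p under 0.05 was reached there by 4 of them, against 3992 of all 15780 genes. Ifit1bl1, Ifi209 and Ifitm2 were higher and Oas1e was lower in nephritis. Mean levels of Ifi44l, Oas1h, Ifitm7, Oas1f and Ifit1bl2 (3.12 to 4.23) lay below 5.03, the lower quartile of mean levels on the array. In remission 3 of the 22 were lower than in nephritis, near the 10.04% share over all genes. These were Oas1c (−0.69 ± 0.17, adjusted p = 0.012), Ifi209 (−0.48 ± 0.12, adjusted p = 0.014) and Ifitm1 (−0.75 ± 0.22, adjusted p = 0.033). Ifi202b, an Ifi200 family gene in a lupus susceptibility interval of the NZB strain, stood at 12.35 ± 0.10 (SD, n = 6), 12.49 ± 0.14 (SD, n = 7) and 12.30 ± 0.11 (SD, n = 4) in the prenephritic, nephritic and remission groups (adjusted p of 0.12 or more). Gbp8 stood at 7.80 ± 0.25 (SD, n = 4) in remission against 8.82 ± 0.68 (SD, n = 7) in nephritic arrays (adjusted p = 0.061).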
